A study of Mus musculus with 4 samples.

Results

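Bcl11b-positive GABA neurons were examined in coronal sections of the neonatal mouse brain by MERFISH, an imaging assay that counts single RNA molecules of a chosen gene panel inside each segmented cell. The cells were chosen by raw counts: at least 20 gene counts in all, at least 5 of Bcl11b, at least 5 of Gad1 and Gad2 together, fewer than 3 of Sst, fewer than 5 of Vip and at most 2 of Slc1a3. The gate found 48487 members among 794833 cells with at least 20 gene counts (kept cells), out of 863580 segmented cells in all. The values of these 6 genes chose the cells and were not tested.

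The tissue came from mice at postnatal day 5, 24 h after the whiskers of the right snout had been lesioned at postnatal day 4, and was cut at 10 µm. Coverslips 3 and 4 were female and coverslips 1 and 2 were male. Every coverslip carried a Cx3cl1(-/-) section and a wild-type section, and all animals were lesioned. No column of the files assigns a cell to a genotype, hemisphere or brain region, so each coverslip's values pool both genotypes and both sides, and the replicate is the coverslip (n = 4). The labels do not say whether a coverslip's 2 sections, or sections of different coverslips, came from littermates, so p-values measure the spread between these 4 coverslips. The labelled tissue is the barrel cortex; the sections were whole coronal outlines.

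Bcl11b encodes CTIP2, a zinc-finger transcription factor known for its role in the medium spiny projection neurons of the striatum and in deep-layer projection neurons of the cortex. Gad1 and Gad2 encode the enzymes that make GABA, the transmitter of striatal projection neurons and of inhibitory interneurons. Sst and Vip mark classes of cortical interneurons, and Slc1a3 is an astrocyte glutamate transporter. The panel was built around Wnt signalling, in which secreted Wnt ligands act on Frizzled receptors and cofactors, cell-surface proteoglycans shape ligand spread, and TCF/LEF factors carry the response to target genes.

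Gene counts ranged from 33519204 to 76555311 per coverslip, and the median kept cell had 161 to 273 counts. Blank barcodes, codes without a probe that gauge false decoding, made up 1.16% to 1.48% of counts. Cell numbers recurred in 3 of the 6 pairs of coverslips, where each file counts its cells anew, but no cell shared position and volume with another. Cells of different types that lie over each other can share an outline, and no doublet caller was applied. A gene is said to lie above every blank when its counts per cell exceeded those of all 40 blanks on every coverslip.

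Only Adra2c, the alpha-2C adrenergic receptor gene, remained as a marker of striatal-type neurons that the gate had not used. In members Adra2c stood at 1.97, 0.907, 1.80 and 1.10 counts per 1000 counts of the 134 genes outside the gate on coverslips 1 to 4, and it did not lie above every blank. A name based on at least 3 independent markers was therefore not possible, and the cells are called Bcl11b-positive GABA neurons, or members. Pvalb, a marker of another interneuron class, was at 0.259 to 0.311 counts per 1000 and likewise not above every blank.

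Members made up 5.81%, 4.86%, 5.43% and 7.88% of the kept cells on coverslips 1 to 4, a mean of 6.0% ± 1.32 (SD, n = 4). Coverslip 4 was both the most deeply read and the richest in members. With cells under 120 counts left out and the others thinned to 120, the shares were 3.08%, 2.37%, 2.17% and 2.56%, and coverslip 4 no longer led. That left 107146 of 172108 kept cells on coverslip 1 and 191859 of 235618 on coverslip 4, so these shares have another base. Coverslip 4 still led among cells of at least 50 counts (8.24%). It also led with a gate of at least 8 Bcl11b counts and 8 of Gad1 and Gad2 together (4.95%). Over sections, told apart by position, the share ran from 4.08% to 9.35%. Members had 283, 274, 316 and 372 counts per cell in the median, and their median volume was 887 to 1025 in file units. Bcl11b itself had a median of 11 counts in members, with 5 and 28 at the 5th and 95th percentiles, and Gad1 and Gad2 had medians of 6 each.

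The edges of the gate were gradual. Cells with exactly 5 Bcl11b counts numbered 5170, and 32.8% of them lay in the member-dense squares described below. At 4 counts, just outside, there were 6130 cells and 25.9% lay in those squares. For Gad1 and Gad2 together, 3811 cells sat at 5 with 68.9% in the squares, against 4119 cells at 4 with 57.7%.

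The members lay in compact patches. When the sections were divided into squares of side 200 in file units, 534 of 6577 squares with at least 10 kept cells had members as at least 20% of those cells. These member-dense squares held 10.2% of all kept cells but 67.8% ± 4.04 of the members per coverslip (SD, n = 4), that is 32775 inside and 15712 outside. The comparison classes were rare there, with 3.48% ± 1.08 of Bcl11b-low GABA neurons and 5.42% ± 2.37 of Bcl11b-positive Gad-low neurons. The first of these classes passes the same gate but has at most 1 Bcl11b count (57385 cells), and the second has at least 5 Bcl11b counts but at most 1 of Gad1 and Gad2 together (37773 cells). The squares were defined by members, so the members' own share in them is a description.

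**Figure D1:**
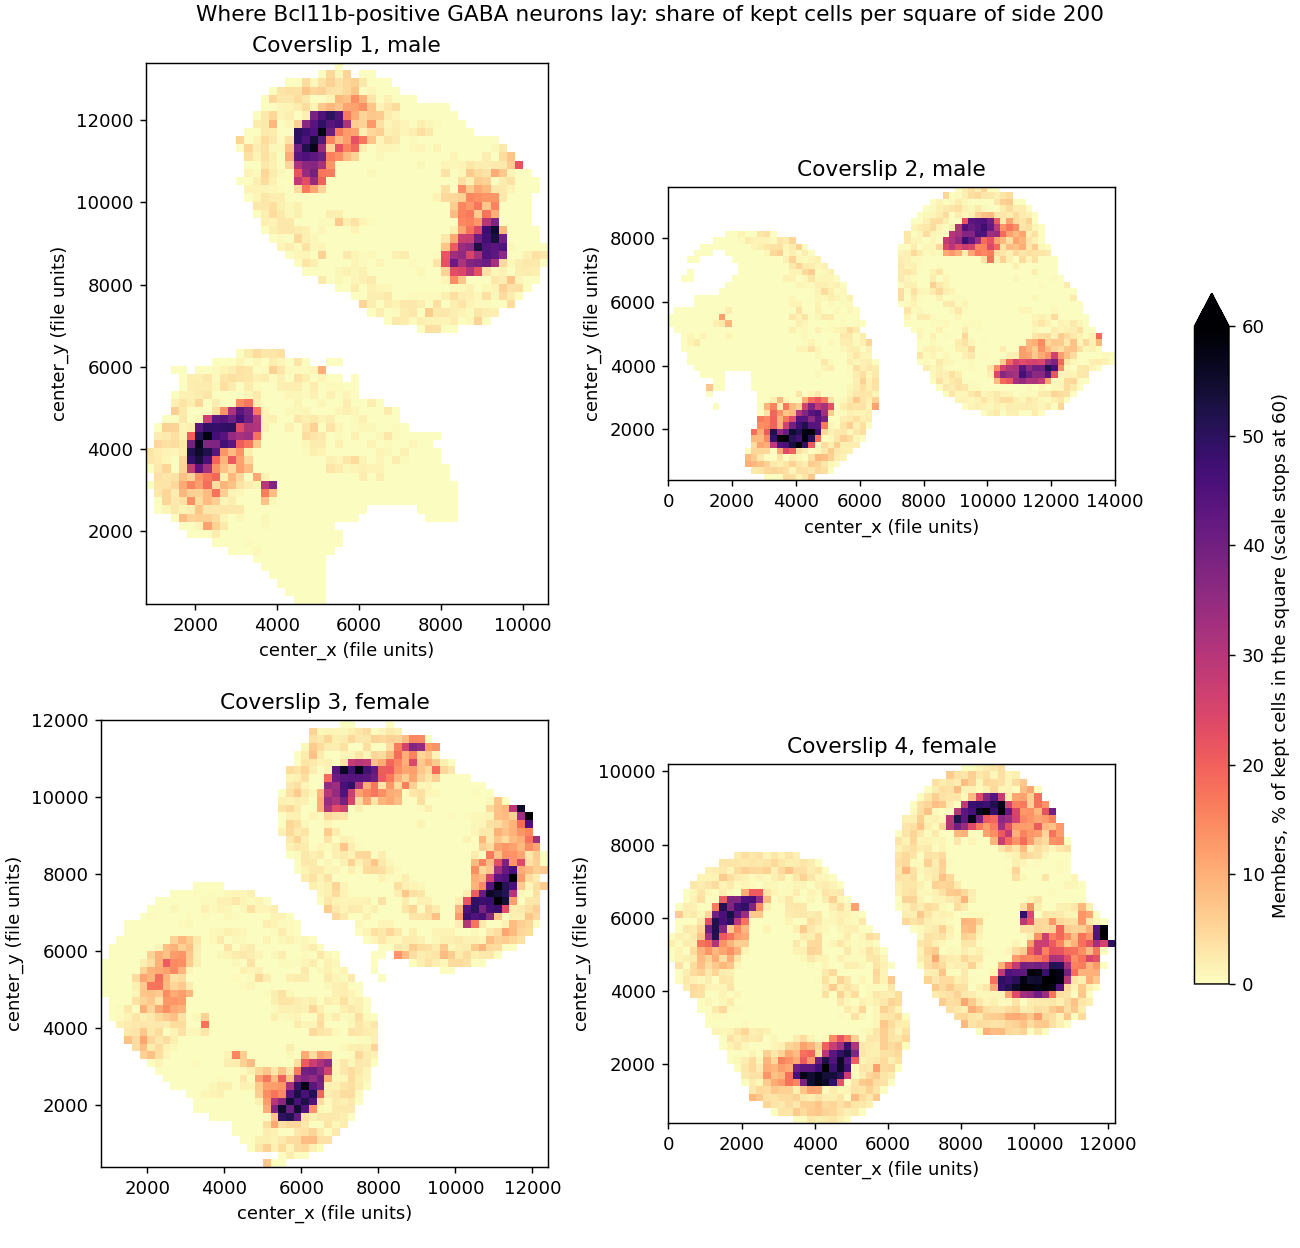
Share of kept cells that are Bcl11b-positive GABA neurons in each square of side 200 (colour, percent), drawn at center_x and center_y of the files for the 4 coverslips, each with 2 sections. Squares with fewer than 10 kept cells are blank. Most members lie in 13 dark patches, 3 each on coverslips 1 to 3 and 4 on coverslip 4.

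Connected groups of at least 10 dense squares formed 13 territories, with 3, 3, 3 and 4 on coverslips 1 to 4. Together they held 31542 members, 65.1% of all, in 30 to 52 squares each. Members were 33.6% to 45.9% of the kept cells of a territory. The median member of a territory was 1140 to 1345 file units from the section edge, with 5th percentiles of 632 to 1044. Over all members of a coverslip, in a territory or not, the median was 1211 ± 29.4. It was 815 ± 28.6 for Bcl11b-low GABA neurons and 731 ± 66.0 for Bcl11b-positive Gad-low neurons (SD, n = 4). The range of members over coverslips did not overlap that of either class.

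Of the 8 sections, 5 had a pair of territories and 3 had a single one. On coverslip 3, the section with the lower center_x held a further group when the threshold was lowered to 10% of kept cells: 21 squares with 359 members, 13.9% of their kept cells. Its kept cells had a median of 93 counts, against 142 to 334 in the other 13 groups found at that threshold. Its cells with at least 5 Bcl11b counts averaged 4.97 counts of Gad1 and Gad2, against 9.72 to 24.1 elsewhere, while Syt6 stood at 13.1 counts per 1000 there, against 7.91 to 15.2. The gate is on raw counts and asks the same number in dimly and deeply read tissue. The part of read depth in the low member share of this group was not tested.

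Members had each other as neighbours. Among the 10 nearest kept cells of a member, 34.4% ± 2.23 were members, 3.62% ± 0.271 were Bcl11b-low GABA neurons and 3.85% ± 0.515 were Bcl11b-positive Gad-low neurons (SD, n = 4). Around a Bcl11b-low GABA neuron 3.02% ± 0.730 of neighbours were members, and around a Bcl11b-positive Gad-low neuron 4.77% ± 0.518 were. The ranges over coverslips did not overlap between members and either class. Each comparison class was also surrounded by its own kind, at 28.7% ± 1.47 and 31.1% ± 3.52.

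**Figure D2:**
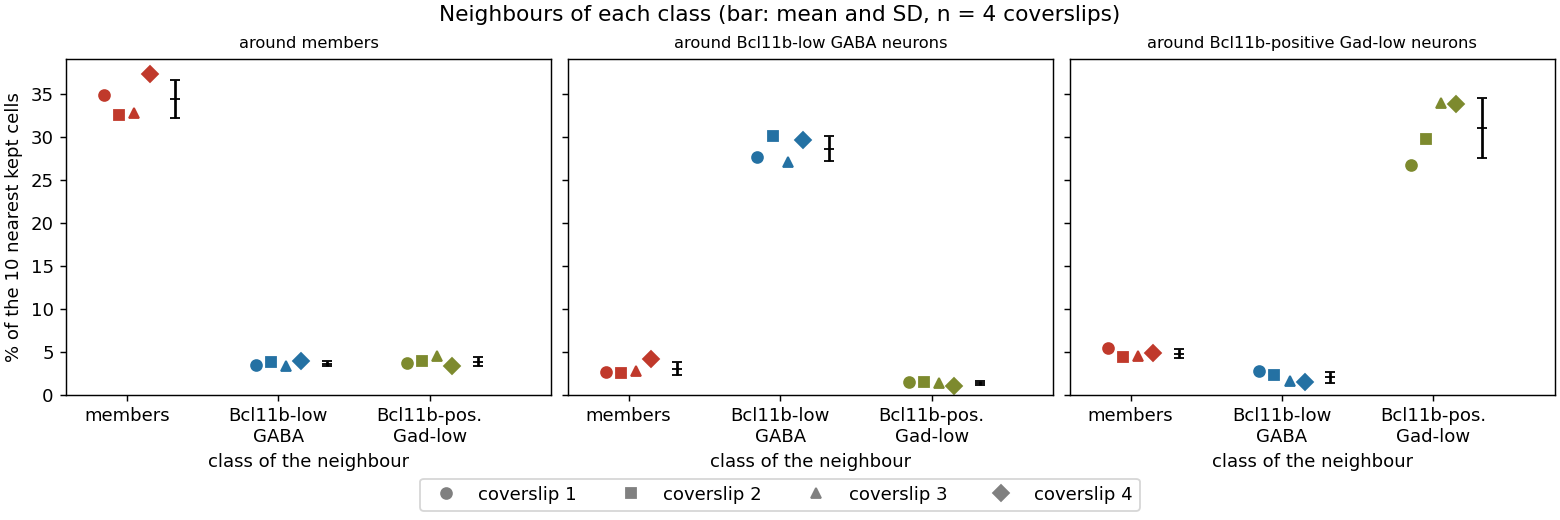
Percentage of the 10 nearest kept cells (vertical axis) that belong to each class (horizontal axis), around members (left), Bcl11b-low GABA neurons (middle) and Bcl11b-positive Gad-low neurons (right). Symbols are the 4 coverslips and bars show the mean and SD; members make up 32.6% to 37.4% of the neighbours of members.

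Which genes set the members apart from GABA neurons with little Bcl11b? Syt6, Fosl2 and Sox9 were higher in members on all 4 coverslips. Syt6 belongs to the synaptotagmins, a family of membrane-trafficking proteins, Fosl2 is an AP-1 transcription factor, and Sox9 is a transcription factor of neural progenitors and astrocytes. These 3 were the genes called higher of 134 tested (2.24%), by edgeR's glmTreat test against a 2-fold difference with coverslip as a block, at a Benjamini-Hochberg adjusted p of 0.05 and with the higher class above every blank. Over all genes the median log2 difference was -0.06. Groups did not overlap over coverslips for 12.7% of genes in the higher and 24.6% in the lower direction.

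Syt6 was at 12.9, 9.84, 10.8 and 9.65 counts per 1000 in members, against 2.32, 3.47, 3.61 and 3.93 in Bcl11b-low GABA neurons. All 4 member values lay above all 4 of the others, and the log2 difference was 1.73 ± 0.20 (SE, edgeR adjusted p = 0.0178). That call was lost without coverslip 2 (log2 1.82, adjusted p = 0.0804), without coverslip 3 (1.84, adjusted p = 0.0662) and with DESeq2 (1.80, adjusted p = 0.285). Fosl2 stood at 3.93, 3.61, 3.66 and 4.09 counts per 1000 in members, against 1.43, 1.18, 1.09 and 1.26, a log2 difference of 1.66 ± 0.05 (edgeR adjusted p = 3.73e-05). For Sox9 the levels were 5.79, 5.66, 4.46 and 5.11 counts per 1000 in members, against 2.29, 1.96, 1.57 and 2.39, a log2 difference of 1.39 ± 0.07 (edgeR adjusted p = 0.0026). Neither of these pairs of groups overlapped. Beside the Sox9 difference, the 3 astrocyte markers outside the gate summed to 6.25 to 7.31 counts per 1000 in members, against 4.92 to 6.02 in Bcl11b-low GABA neurons. The 4 oligodendrocyte lineage markers summed to 3.96 to 4.59, against 7.59 to 9.83. Other glial genes of the panel went both ways. Their mean log2 ratios on female and male coverslips were -0.53 and -0.47 for Apoe, -0.30 and -0.36 for Aldoc, and -0.37 and -0.47 for Sox2. For Glul they were 0.13 and 0.05. The part of overlapping glia in the Sox9 difference was not tested.

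Members had more counts per cell than Bcl11b-low GABA neurons, with medians of 274 to 372 against 178 to 289. In cells of 200 to 400 gene counts only, an alternative added after the data were seen, Syt6, Fosl2 and Sox9 were again called higher. The classes also lay in different places. The member-dense squares held just 2.65% to 5.07% of the Bcl11b-low GABA neurons of a coverslip, so the reference there is a small part of that class. Within these squares alone Syt6 was still called (log2 1.27 ± 0.11, edgeR adjusted p = 0.0421), while Sox9 was at 1.25 ± 0.13 (adjusted p = 0.145) and Fosl2 at 0.99 ± 0.09 (adjusted p = 1). In these squares 5 genes were called lower in members, among them Pdgfra and Cspg4 of the oligodendrocyte precursor, Sox10 of the oligodendrocyte lineage and Cldn5 of vessels, with log2 differences of -1.43, -1.83, -1.80 and -2.21, and Cux2, an upper-layer neuron gene, at -1.40. The small reference thus carried more RNA of other cell types than the members did. The part of overlapping cells in these 5 differences was not tested.

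No gene was called lower in members over all squares (0 of 134, 0%, edgeR glmTreat), where 8 had an unadjusted p under 0.05 and DESeq2 called 0. Of these 8, 5 passed the 2-fold test after adjustment but did not lie above every blank in Bcl11b-low GABA neurons. They were Tcf7l2, Gpc3, Gpc4, Cspg4 and Cldn5, with log2 differences of -1.84, -1.56, -1.28, -1.29 and -1.28. Wnt2, a Wnt ligand, passed in the other direction at 1.67 ± 0.08 (edgeR adjusted p = 0.000271), with 0.817 ± 0.10 counts per 1000 in members and 0.264 ± 0.0539 in Bcl11b-low GABA neurons (SD, n = 4), and was below at least 1 blank in both. Its level in Bcl11b-positive Gad-low neurons is plotted beside these.

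Smaller differences were common. Against no change, edgeR's quasi-likelihood test with the same rule on blanks called 26 genes higher (19.4%) and 8 lower (5.97%). By that rule at most 44 genes could be called higher and 33 lower, those above every blank in members and in Bcl11b-low GABA neurons. Of all 134 log2 differences, called or not, 59 were above 0 and 75 below. Prkce, a protein kinase C gene, was at 17.8 ± 1.27 counts per 1000 in members and 9.53 ± 1.32 in Bcl11b-low GABA neurons (log2 0.94). Of the 18 Wnt receptors and cofactors, 3 were higher and 0 lower in the test against no change. Just 3 of the 18 lay above every blank in members and 2 in Bcl11b-low GABA neurons, and 11 of the 18 log2 differences were below 0. The share higher was near that over all genes, and the median log2 difference of the 18 was -0.04. The 3 were Fzd3 (9.34 ± 0.943 against 5.76 ± 0.524), Ryk (6.13 ± 0.480 against 4.04 ± 0.252) and Ptk7 (5.11 ± 0.670 against 3.65 ± 0.670), with log2 differences of 0.72, 0.63 and 0.52. The ligand Wnt7a had 3.15 ± 0.388 against 2.19 ± 0.306 counts per 1000 (log2 0.55), and within the member-dense squares the log2 difference was 0.10. Wnt4 (log2 -1.09) and the imprinted zinc-finger gene Peg3 (log2 -0.73) were among the 8 lower genes. The SDs here are over 4 coverslips.

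The other genes fixed for naming did not pass the 2-fold test. Adra2c was at 1.44 ± 0.518 counts per 1000 in members and 0.669 ± 0.214 in Bcl11b-low GABA neurons (SD, n = 4, log2 1.12, edgeR adjusted p = 0.686), and it was called only without coverslip 2 (1.29, adjusted p = 0.0124). Pvalb had a log2 difference of -1.37 (adjusted p = 0.123) and Wnt7b of -0.26 (adjusted p = 1). Meg3, a noncoding RNA abundant in neurons, took 397 ± 15.4 of every 1000 counts in members and differed by -0.06.

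Set against Bcl11b-positive neurons with little Gad1 and Gad2, members carried more Sox2, Sox9, Wnt7a and Aldoc and less Wnt7b, Slc17a6, Gpc4 and Tcf4. Sox2 and Sox9 are transcription factors of neural progenitors and glia, Aldoc is an aldolase of glycolysis, Slc17a6 encodes the vesicular glutamate transporter VGLUT2, Gpc4 is a glypican proteoglycan and Tcf4 a basic helix-loop-helix factor. These 8 were all the called genes: 4 higher and 4 lower of 134 tested, 2.99% in each direction by the same edgeR test. Over all genes the median log2 difference was -0.00, and 12.7% of genes in the higher and 19.4% in the lower direction did not overlap over coverslips. Against no change, 21 genes were higher (15.7%) and 21 lower (15.7%). Markers of other cell types moved with Sox2, Sox9 and Aldoc: the 3 astrocyte markers outside the gate summed to 6.25 to 7.31 counts per 1000 in members, against 4.58 to 5.26 in the Gad-low class, and the 4 oligodendrocyte lineage markers to 3.96 to 4.59, against 3.18 to 3.71, neither with overlap. Gfap and Aqp4 were higher in members against no change (log2 0.66 and 0.37), and no oligodendrocyte lineage marker lay above every blank in either class. The 6 microglial markers summed to 2.68 to 3.27, against 2.89 to 3.34. The part of overlapping cells in these differences was not tested.

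Sox2 differed most, at 7.61, 8.73, 7.85 and 8.74 counts per 1000 in members against 1.61, 1.61, 1.75 and 1.34 in the Gad-low class, a log2 difference of 2.48 ± 0.11 (SE, edgeR adjusted p = 2.39e-06). Bcl11b-low GABA neurons had 11.0 ± 0.715 counts per 1000 (SD, n = 4), above all 4 member values, so a high Sox2 level was found in both GABA classes. Sox9 showed another pattern, with 5.25 ± 0.606 counts per 1000 in members, against 1.45 ± 0.237 in the Gad-low class (log2 1.96 ± 0.08, edgeR adjusted p = 2.39e-06), and was also above Bcl11b-low GABA neurons as given above. Aldoc averaged 4.71 ± 1.03 against 2.26 ± 0.596 (log2 1.17 ± 0.05, edgeR adjusted p = 0.0179). Its call was lost in 11 of 18 alternatives, among them DESeq2 (1.14, adjusted p = 0.0535), library totals (1.07, adjusted p = 0.303), cells of 200 to 400 counts (0.92, adjusted p = 1), the stricter gate (1.10, adjusted p = 0.0838), members with Slc17a6 or Aqp4 left out (1.14, adjusted p = 0.0626), and the fits without coverslip 2 (1.14, adjusted p = 0.0859) and without coverslip 3 (1.16, adjusted p = 0.0589).

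The paralogous ligands Wnt7a and Wnt7b went in opposite directions. Wnt7a was at 3.49, 2.59, 3.29 and 3.24 counts per 1000 in members, against 1.00, 0.83, 1.24 and 1.10 in the Gad-low class (log2 1.70 ± 0.08, edgeR adjusted p = 1.39e-05). Wnt7b was at 1.36, 1.31, 1.48 and 1.60 in members, against 7.46, 5.84, 5.49 and 7.09 (log2 -2.06 ± 0.09, edgeR adjusted p = 2.39e-06). The groups did not overlap for either gene. Outside the member-dense squares Wnt7b was still called lower (-1.43), while Wnt7a, at 1.32 (adjusted p = 0.00276), was no longer above every blank.

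Slc17a6 averaged 1.12 ± 0.172 counts per 1000 in members and 4.24 ± 0.491 in the Gad-low class (log2 -1.83 ± 0.11, edgeR adjusted p = 3.77e-05). Gpc4 had 1.22 ± 0.163 against 3.38 ± 0.474 (log2 -1.37 ± 0.09, adjusted p = 0.00493), and Tcf4 had 1.33 ± 0.144 against 3.43 ± 0.258 (log2 -1.28 ± 0.07, adjusted p = 0.00737). When only cells outside the member-dense squares were compared, Sox2 (log2 2.76) and Aldoc (1.49) were called higher, as was Cux2 (1.84). Sox9 was at 1.06, Slc17a6 at -1.13, Gpc4 at -0.96 and Tcf4 at -0.40 there, and none of these 4 passed.

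Fosl2 and Syt6, both higher in members than in Bcl11b-low GABA neurons, were not called against the Gad-low class. Fosl2 had 3.82 ± 0.228 counts per 1000 in members and 4.40 ± 0.903 in the Gad-low class, with overlapping groups (log2 -0.09, edgeR adjusted p = 0.261 against no change). Syt6 was at 10.8 ± 1.50 in members and 5.96 ± 1.53 in the Gad-low class (log2 0.98 ± 0.10, edgeR adjusted p = 2.38e-05 against no change), without overlap but short of the 2-fold test; without coverslip 4 it was called. Cx3cl1 differed by 0.66, Adra2c by 1.14, Meg3 by 0.21 and Pvalb by 0.10, and none of these 4 passed the 2-fold test.

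**Figure D3:**
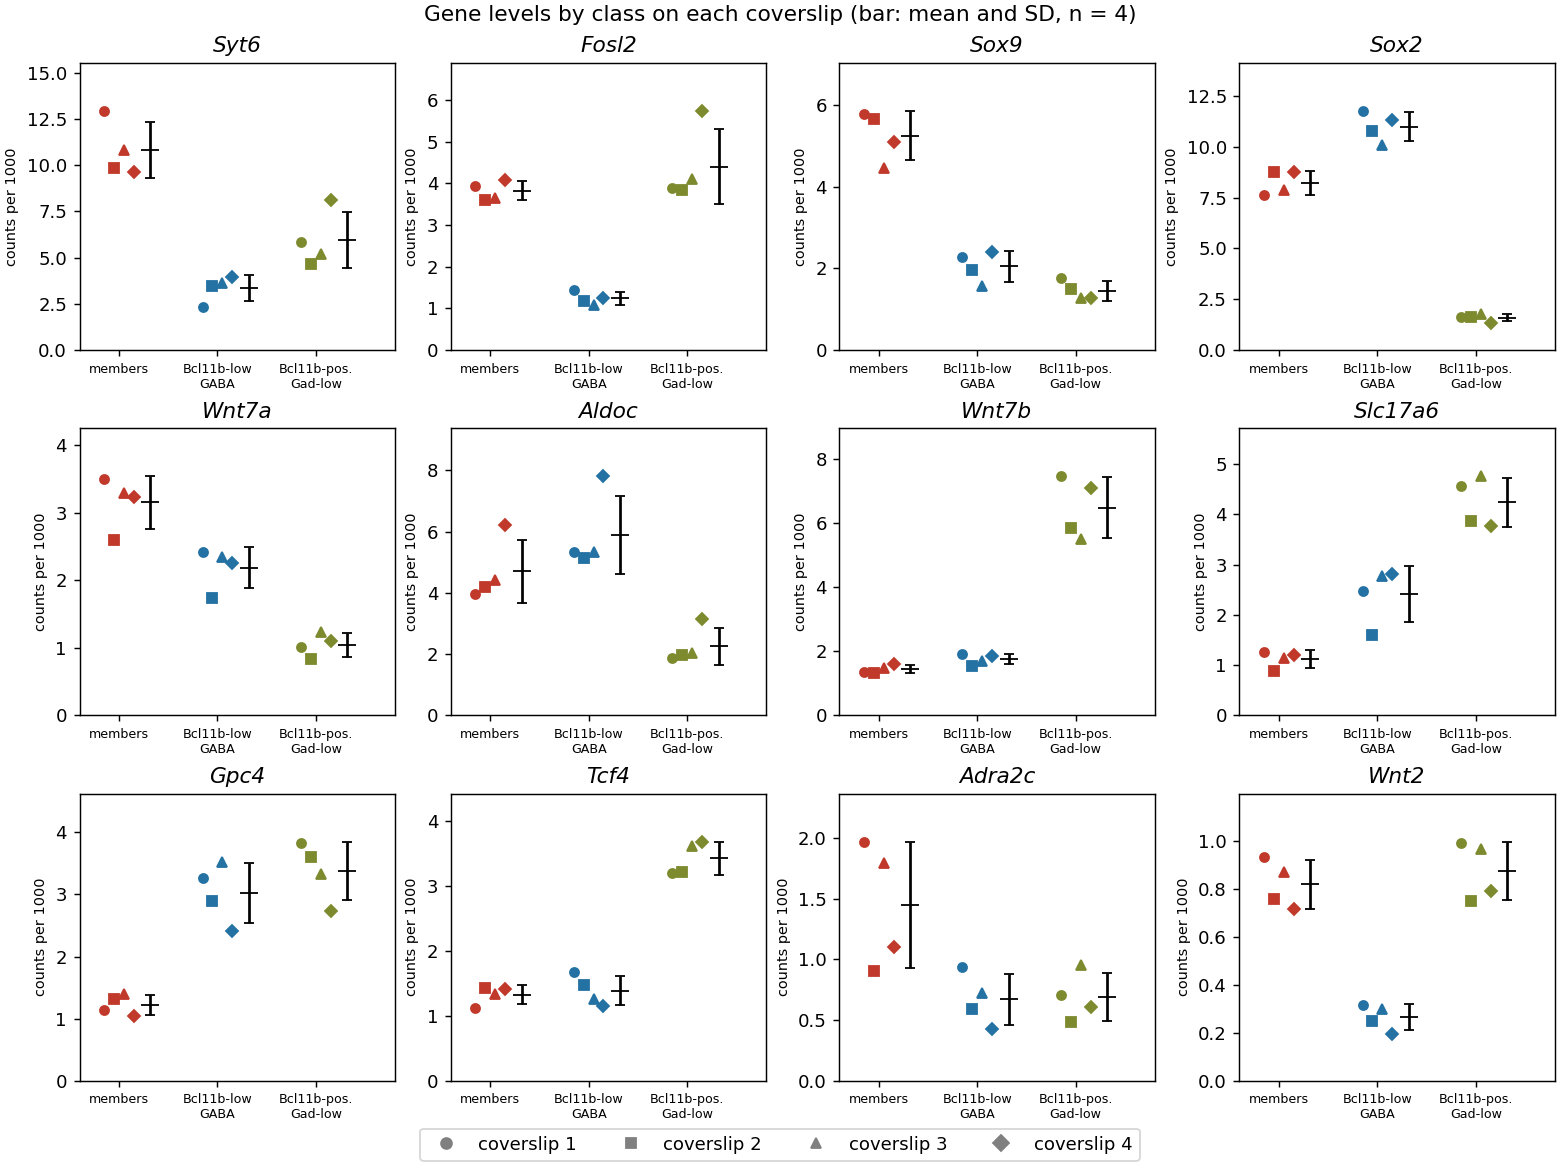
Counts per 1000 counts of the genes outside the gate (vertical axis) for 12 genes in members, Bcl11b-low GABA neurons and Bcl11b-positive Gad-low neurons; symbols are the 4 coverslips and bars show the mean and SD. Sox9 and Syt6 are highest in members, the values of Fosl2 and of Wnt2 overlap between both Bcl11b-positive classes, and Sox2 is high in both GABA classes; Adra2c and Wnt2 did not lie above every blank.

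Among the fixed gene lists, chosen with earlier results of these data known, the share of genes above every blank in members varied. Over all 134 genes tested, 44 lay above every blank in members, 33 in Bcl11b-low GABA neurons and 58 in the Gad-low class. The counts per class below stand beside these totals. Of 10 proteoglycans 5 did (Gpc1, Gpc5, Gpc6, Sdc2 and Sdc3), against 4 in Bcl11b-low GABA neurons and 8 in the Gad-low class. Of 9 neuronal survival, adhesion and signalling genes 6 did (Cx3cl1, Fosl2, Meg3, Nlgn2, Peg3 and Prkce), against 5 and 7. Of 19 Wnt ligand and secretion genes 3 lay above every blank in members (Wnt7a, Wnt16 and Porcn, the acyltransferase that lipid-modifies Wnts), against 1 in Bcl11b-low GABA neurons (Wnt4) and 4 in the Gad-low class. Of 18 receptors and cofactors 3 did (Fzd3, Ryk and Ptk7), against 2 and 7. The Gad-low class added Fzd1, Fzd9, Reck and Adgra2; the last 2 encode the partners through which Wnt7 ligands signal in brain vessels. None of the 4 TCF/LEF factors and none of the 7 Wnt antagonists lay above every blank in any of the 3 classes.

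The called counts per list were small. Over all genes, the 2-fold test called 2.24% higher and 0% lower against Bcl11b-low GABA neurons. Against the Gad-low class it called 2.99% in each direction. Against Bcl11b-low GABA neurons, 1 of the 9 neuronal survival, adhesion and signalling genes was called higher (Fosl2), and the other 5 lists had no called gene. Against the Gad-low class, the 19 Wnt ligand and secretion genes gave 1 higher (Wnt7a) and 1 lower (Wnt7b), with a median log2 difference of -0.05, and the 10 proteoglycans gave 1 lower (Gpc4), with a median of -0.13. Against no change, where 15.7% of all genes passed in each direction, 2 of the 10 proteoglycans were higher and 5 lower than in the Gad-low class. Gpc5 had 2.90 ± 0.173 against 6.42 ± 0.887 counts per 1000, and Gpc6 had 7.24 ± 0.572 against 4.46 ± 0.589 (SD, n = 4). For receptors the median was -0.15, and 3 of 18 were higher and 4 lower against no change, which is near the share over all genes.

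The members were not uniform, and their genes differed with place. Inside the member-dense squares Syt6 and Sox9 were higher than in members outside, and Gpc5 and Cux2 were lower. Gpc5 is a glypican and Cux2 a homeodomain factor of upper-layer cortical neurons and of some interneurons. These were 2 higher and 2 lower genes of 134 tested, 1.49% in each direction by edgeR's glmTreat test against a 2-fold difference, with a median log2 difference of -0.05 over all genes. Groups did not overlap for 13.4% of genes in the higher and 17.9% in the lower direction. The split used positions and the gate only.

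Syt6 was at 17.1, 13.4, 15.0 and 13.6 counts per 1000 inside, against 4.25, 3.23, 4.34 and 3.39 outside (log2 1.96 ± 0.05, edgeR adjusted p = 1.62e-05). Sox9 was at 7.30, 7.40, 6.10 and 7.04 inside, against 2.62, 2.44, 1.93 and 2.05 outside (log2 1.63 ± 0.07, adjusted p = 0.000233). For comparison, all Bcl11b-low GABA neurons had 2.32 to 3.93 counts per 1000 of Syt6 and 1.57 to 2.39 of Sox9, ranges that overlap those of members outside. Gpc5 had 1.04, 1.23, 1.17 and 1.32 counts per 1000 inside, against 7.15, 6.26, 5.73 and 4.74 outside (log2 -2.31 ± 0.16, edgeR adjusted p = 0.000466). Cux2 had 1.77, 2.32, 2.24 and 2.78 inside, against 7.97, 11.1, 8.00 and 11.5 outside (log2 -2.08 ± 0.08, adjusted p = 7.89e-05). In each of these 4 genes the groups did not overlap.

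Another 6 genes passed the 2-fold test in the lower direction but did not lie above every blank outside: Tcf4 (log2 -2.0), Wif1 (-1.92), Rorb (-1.57), Slc17a6 (-1.49), Bcl2l11 (-1.35) and Wnt7b (-1.29). Wif1 is a secreted Wnt inhibitor, Rorb a receptor of layer 4 neurons and Bcl2l11 a pro-apoptotic BCL2 family gene. Without coverslip 1, Tcf4 and Rorb were called lower. Adra2c averaged 1.80 ± 0.672 counts per 1000 inside and 0.807 ± 0.228 outside (SD, n = 4, log2 1.13 ± 0.12, edgeR adjusted p = 0.592), without overlap. Over the 4 coverslips it did not lie above every blank inside or outside. Without coverslip 2 it was called higher (1.27, edgeR adjusted p = 0.0137).

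Against no change, 24 genes were higher inside (17.9%) and 13 lower (9.7%). By the rule on blanks at most 46 could be called higher and 42 lower. Of all 134 log2 differences, 62 were above 0 and 72 below. The higher ones included Gpc6 (8.79 ± 0.511 inside against 4.51 ± 0.460 counts per 1000 outside, log2 0.96), Fzd3 (10.8 ± 1.12 against 6.73 ± 0.330, log2 0.67) and Cx3cl1 (34.0 ± 5.82 against 21.2 ± 3.19, log2 0.67). The Cx3cl1 values pool both sections of a coverslip, which differ widely in this gene as given below. Wnt7a had 3.62 ± 0.449 inside and 2.32 ± 0.282 outside (log2 0.64), and the syndecan Sdc2 had 3.94 ± 0.339 and 2.57 ± 0.219 (log2 0.61). Of the 18 receptors and cofactors 3 were higher and 0 lower against no change, with a median log2 difference of -0.11 and 10 differences below 0. Just 3 of the 18 lay above every blank inside and 3 outside. By the 2-fold test, 1 of 10 proteoglycans (Gpc5) was called lower, beside 1.49% of all genes. Meg3 (log2 -0.05) and Pvalb (-0.07) did not pass.

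Markers of other cell types were measured beside this contrast. The 3 astrocyte markers outside the gate (Aqp4, Gfap and Aldh1l1) summed to 6.52 to 7.71 counts per 1000 inside, against 5.70 to 6.68 outside. Aqp4, the astrocyte water channel, was at 2.07 ± 0.209 inside and 1.98 ± 0.217 outside (SD, n = 4, edgeR adjusted p = 0.265 against no change), and Gfap at 3.38 ± 0.400 and 2.69 ± 0.319 (log2 0.32). The 4 oligodendrocyte lineage markers summed to 4.21 to 5.03 inside, against 3.44 to 3.82 outside. The 6 microglial markers summed to 2.66 to 3.32 inside, against 2.65 to 3.20 outside, and none lay above every blank. The part of overlapping cells in these differences was not tested. Of the 6 neuron and layer markers, 1 was called higher (Syt6) and 1 lower (Cux2), beside 1.49% of all genes in each direction.

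The levels followed the local density of members in steps. Members were split by the share of members in their square into under 5% (6702 cells), 5 to 20% (8999), 20 to 40% (11077) and at least 40% (21698). Syt6 averaged 2.60 ± 0.473, 4.56 ± 0.891, 13.3 ± 2.67 and 15.5 ± 1.34 counts per 1000 over these tiers (SD, n = 4) and rose at each step on 4 of 4 coverslips. Adra2c averaged 0.657 ± 0.191, 0.898 ± 0.259, 1.45 ± 0.504 and 2.00 ± 0.751, also rising at each step on 4 of 4, though it did not lie above every blank inside or outside the member-dense squares. Cux2 averaged 14.7 ± 1.98, 6.41 ± 1.81, 2.70 ± 0.675 and 2.08 ± 0.327 and fell at each step on 4 of 4.

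Other genes did not run one way over the tiers. Gpc5 averaged 4.46 ± 0.403, 6.97 ± 1.64, 1.88 ± 0.475 and 0.846 ± 0.0778 counts per 1000 over the same tiers, highest at 5 to 20% on all 4 coverslips. Sox9 averaged 1.77 ± 0.214, 2.58 ± 0.465, 7.50 ± 1.70 and 6.55 ± 0.848, and Gpc6 averaged 3.64 ± 0.374, 5.07 ± 0.529, 10.2 ± 1.40 and 7.95 ± 0.361, though on coverslip 4 Sox9 was highest at 40% or more. The astrocyte markers were measured over the same tiers. Gfap averaged 3.04 ± 0.363, 2.48 ± 0.317, 4.33 ± 0.589 and 2.85 ± 0.393 and was highest at 20 to 40% on 4 of 4 coverslips, the tier where Sox9 was highest on 3 of 4. Aqp4 lay between 1.86 ± 0.186 and 2.16 ± 0.260 and Aldh1l1 between 1.28 ± 0.315 and 1.50 ± 0.365. Outside these 3 markers, Apoe was highest at 20 to 40% on every coverslip. Aldoc was highest at 5 to 20%, at 6.50, 6.69, 6.02 and 8.28 on coverslips 1 to 4, against 3.34, 3.87, 4.35 and 7.05 at 20 to 40%. The part of overlapping astrocytes in the Sox9 and Gpc6 levels was not tested. Within each coverslip the median counts per member were highest in the 5 to 20% tier. They were 328 to 475.5 there over coverslips, against 248 to 378.5 in the other tiers. On coverslip 3 the margin was small, at 328 against 326 in the tier of at least 40%. The tiers were defined by members, and no test was made across them.

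**Figure D4:**
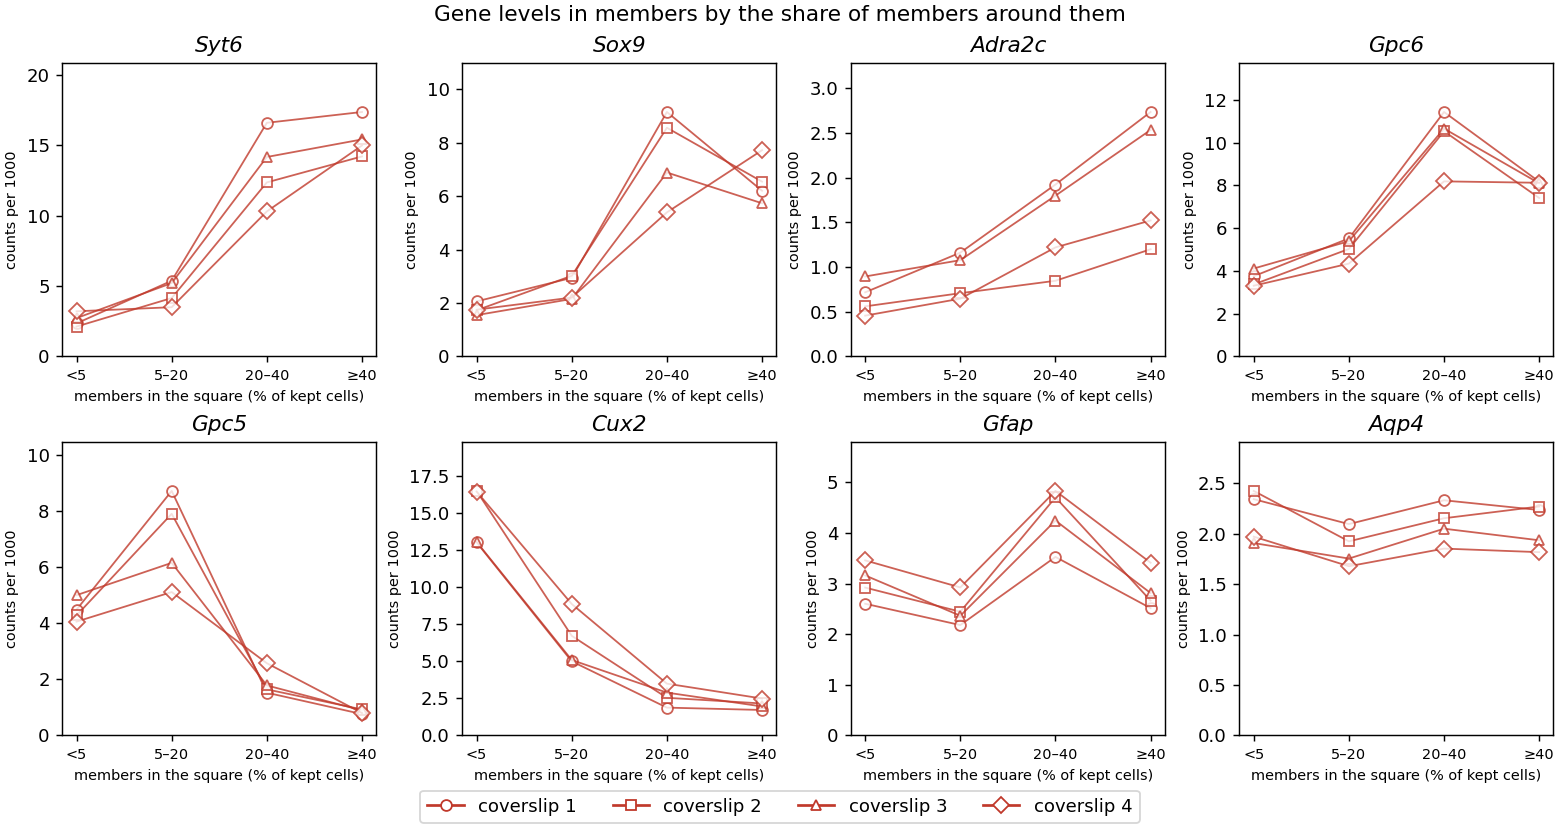
Counts per 1000 counts of the genes outside the gate in members (vertical axis) against the share of members among the kept cells of their square (horizontal axis, 4 tiers), with a line for each coverslip. Syt6 and Adra2c climb, Cux2 declines, Gpc5 peaks at 5 to 20%, Sox9, Gpc6 and the astrocyte marker Gfap are higher at 20 to 40% than at 5 to 20% on every coverslip, and the astrocyte marker Aqp4 lies near 2. Adra2c did not lie above every blank in members.

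Cx3cl1, the gene of the neuronal chemokine fractalkine, split the 8 sections. In members of the sections with the lower center_x it was at 0.430, 0.553, 0.561 and 0.689 counts per 1000 on coverslips 1 to 4. In the sections with the higher center_x it was at 56.1, 43.7, 48.7 and 39.3. The low values correspond to 0.119 to 0.218 counts per cell, under the highest blank of 0.291 to 0.494 counts per cell in the same cells. Genotype was not assigned to sections from these values, and no comparison between the 2 kinds of section was made.

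Among the 4 sections where Cx3cl1 was read, members had the highest level of the 3 classes in every one. On coverslip 1 members had 56.1 counts per 1000, against 34.4 in Bcl11b-low GABA neurons and 42.6 in the Gad-low class, and on coverslip 4 they had 39.3, against 23.4 and 31.1. Pooled over both sections, the log2 difference from Bcl11b-low GABA neurons was 0.83 ± 0.09, from the Gad-low class 0.66 ± 0.06, and between members inside and outside 0.67 ± 0.07. All 3 passed edgeR's test against no change (adjusted p = 0.000188, 6.13e-06 and 0.000192) and none the 2-fold test. The mix of sections differs between classes: on coverslips 1 to 4 the section with the higher center_x held 57.4% to 61.0% of members, 49.2% to 72.1% of Bcl11b-low GABA neurons and 47.8% to 60.04% of the Gad-low class. Within those 4 sections alone the plain log2 ratio of counts per 1000 was 0.71 to 0.93 over Bcl11b-low GABA neurons and 0.34 to 0.47 over the Gad-low class. The pooled differences above are edgeR fits, which scale the counts otherwise. As plain ratios, the pooled differences from the Gad-low class averaged 0.58 on female and 0.55 on male coverslips. These means are smaller than the fitted 0.66 but still above the ratio in each of those sections. For members inside against outside, no ratio was taken within sections. The share of members inside differed most on coverslip 3, at 55.6% in the section with the lower center_x and 67.8% in the other.

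**Figure D5:**
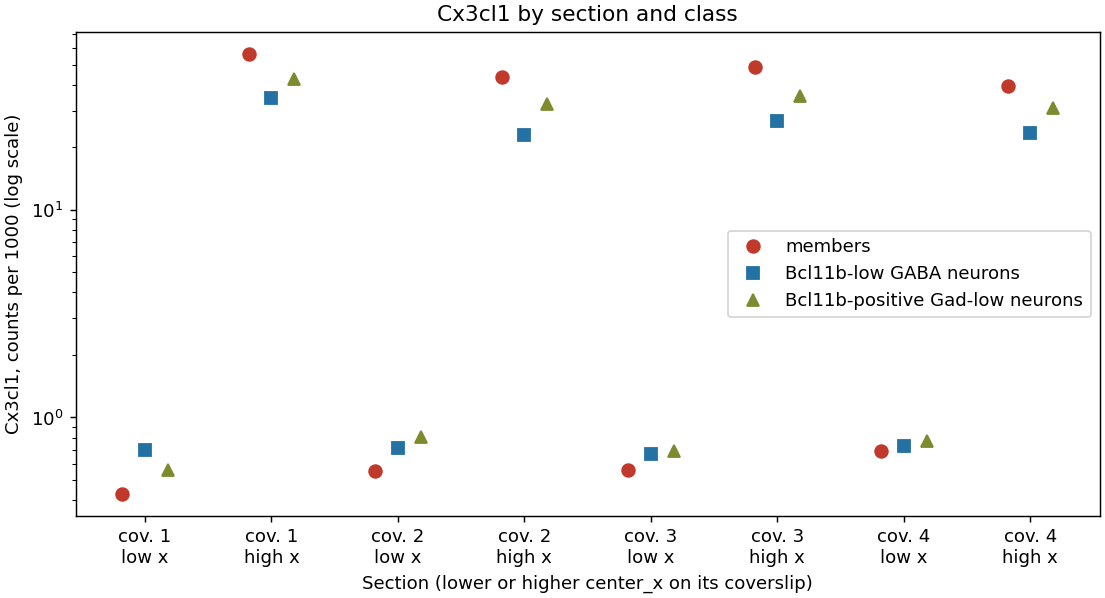
Cx3cl1 in counts per 1000 (vertical axis, log scale) for each section (horizontal axis: coverslip, and lower or higher center_x) in members, Bcl11b-low GABA neurons and Bcl11b-positive Gad-low neurons. In the section with the higher center_x members lie at 39.3 to 56.1, Bcl11b-low GABA neurons at 23.0 to 34.4 and the Gad-low class at 31.1 to 42.6, and all 3 lie below 1 in the other section; no genotype is assigned.

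Other genes varied less between sections. In members Syt6 ranged from 8.37 to 13.1 counts per 1000 over the 8 sections, Sox9 from 4.05 to 6.13, Fosl2 from 3.31 to 4.52 and Wnt7a from 2.03 to 3.98. Adra2c ranged from 0.874 to 2.41. Its values were 2.00 and 1.95 in the sections of coverslip 1, and 0.949 and 0.874 in those of coverslip 2. Over the 13 territories, Syt6 ran from 11.2 to 18.7 counts per 1000, Sox9 from 5.92 to 9.01 and Wnt7a from 1.91 to 4.71.

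Sex was the group label that differed between coverslips. Read depth differed along with it. The median kept cell had 161 and 162 counts on male coverslips, against 185 and 273 on female coverslips. In these data sex and depth cannot be told apart. The sexes did not overlap for 42.5% of genes in either direction. No gene was called between female and male members (0 of 134, 0%, edgeR's quasi-likelihood test against no change), where 14 had an unadjusted p under 0.05 and DESeq2 called 9. Tcf7l2, a TCF/LEF factor that did not lie above every blank, led with 0.778 and 0.937 counts per 1000 on female coverslips, against 0.491 and 0.488 on male coverslips (log2 0.86 ± 0.18, edgeR adjusted p = 0.232). With 2 coverslips per sex, an exact two-sided permutation test cannot give less than 0.333. Without coverslip 3, which leaves a single female coverslip assumed to vary like the male ones, 6 genes were called higher and 6 lower. With the summed cell volume as the scale, 11 were higher. The log2 differences of the genes fixed for naming were 0.25 for Wnt7b, 0.15 for Pvalb, 0.14 for Wnt7a, 0.09 for Meg3, 0.03 for Adra2c and 0.03 for Cx3cl1, with edgeR adjusted p from 0.645 to 0.974. For Cx3cl1 the means, 29.3 counts per 1000 in female and 29.4 in male members, differ in the other direction from the fit. Members were 5.43% and 7.88% of kept cells on female coverslips, against 5.81% and 4.86% on male coverslips, and these ranges overlapped.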

How the data were processed

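MERFISH counts of 140 genes and 40 blank barcodes per segmented cell were read from 4 coverslips. The counts are raw, as deposited by the authors; cell volume and centre are other measures in the deposited files, whose unit is not stated per the file headers. The software for decoding and segmentation is not stated in the labels or headers. Members and gene lists were chosen with earlier results of these data known. Counts of the 134 genes outside the gate were summed per coverslip and class (n = 4) and compared with edgeR 4.0.16 (R 4.3.3): TMM factors, glmQLFit with coverslip as a block, and glmTreat against 2-fold, adjusted by Benjamini-Hochberg at 0.05, with the rule on blanks given in the text; sexes were compared with glmQLFTest. DESeq2 1.42.0 was an alternative, as were other scales, filters, gates, squares and fits without 1 coverslip. The genes named were, per comparison, up to 10 called genes of largest difference in each direction, called genes of the lists, and Adra2c, Pvalb, Cx3cl1, Wnt7a, Wnt7b and Meg3; other genes were named after their values were seen. Depth was 161 to 273 counts per median kept cell; low genes are limited by the blanks. The fits were run on simulated counts with changes larger than 2-fold, no coverslip effects on single genes and no rule on blanks. That run does not bear on the rule on blanks, the coverslip block or differences near 2-fold. Sequences were not needed for these results.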

Additional observations from a re-analysis of the deposited data

Results flagged for a closer look

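Of 34 sets of 4 coverslip values looked at, 2 had a coverslip that stood apart from the other 3 by more of the whole range than Dixon's 95% critical value; chance gives about 1 in 20 such sets. The log2 ratio of Cx3cl1 between members and Bcl11b-low GABA neurons was 0.48 on coverslip 2, against 0.91, 0.95 and 0.90 on coverslips 1, 3 and 4. These pool both sections of a coverslip; on coverslip 2 the section where Cx3cl1 was read held 57.4% of members and 72.1% of Bcl11b-low GABA neurons, and within that section the log2 ratio was 0.93, against 0.71, 0.87 and 0.75 on coverslips 1, 3 and 4. The log2 ratio of Adra2c between members and Bcl11b-positive Gad-low neurons was 1.48 on coverslip 1, against 0.91, 0.92 and 0.86 on coverslips 2, 3 and 4.

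The contrast between members and Bcl11b-positive Gad-low neurons differed between female and male coverslips for 4 of 134 genes, by an edgeR interaction term over 2 coverslips per sex, with no rule on blanks. Frzb, Wnt11 and Fzd7 did not lie above every blank in either class, and Rorb did only in the Gad-low class. The female minus male difference of log2 ratios was 0.62 for Frzb and 0.52 for Rorb, and it was -0.49 for Wnt11 and -0.60 for Fzd7 (edgeR adjusted p = 0.0253 for each). Fzd7, a Frizzled receptor, had a mean log2 ratio of -1.84 on female and -1.14 on male coverslips. For the ligand Wnt11 these were -1.65 and -1.06, for the secreted antagonist Frzb -0.54 and -1.05, and for Rorb -0.43 and -0.85. Female coverslips were also the more deeply read, so sex and depth cannot be told apart here. The dimly read group of cells on coverslip 3, whose Gad1 and Gad2 counts were low, lies among the female sections. Its part in these differences was not tested. The other contrasts, with Bcl11b-low GABA neurons and between members inside and outside the dense squares, had 0 such genes at an adjusted p under 0.05, with 17 and 15 at an unadjusted p under 0.05.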

How the results depend on the processing

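The alternatives limited to cells of 200 to 400 counts and to squares with a median of at least 150 counts were chosen after seeing the data. For genes named in the comparisons, 550 of the values recomputed under alternatives kept their direction and side of the threshold, 26 lost a call, 11 gained one and 25 changed sign. Members differed from Bcl11b-low GABA neurons in 3 higher and 0 lower genes; without the rule on blanks 5 were lower, against no change 26 were higher and 8 lower, in the member-dense squares alone 1 was higher and 5 lower, and in cells of 200 to 400 counts 1 was lower. Leaving out a coverslip gave 0 to 2 lower genes, the 2 (Gpc4 and Wnt4) without coverslip 2. Against the Gad-low class, where 4 were higher and 4 lower, the test against no change gave 21 and 21, and outside the member-dense squares 1 was lower. Without the replicate block (the coverslip) 2 were lower, since Gpc4 (-1.38, adjusted p = 0.0682) and Tcf4 (-1.27, adjusted p = 0.0874) were lost, as were Aldoc there (1.17, adjusted p = 0.925) and Sox9 against Bcl11b-low GABA neurons (1.38, adjusted p = 0.0662); no other call changed with the block. Inside against outside, 2 were higher and 2 lower; against no change these were 24 and 13, without the rule on blanks 8 were lower, squares of at least 10% members gave 4 lower, those of at least 30% gave 1 higher, cells of 200 to 400 counts gave 6 lower, squares with a median of at least 150 counts gave 4 lower, and leaving out a coverslip gave 2 to 4 lower. Gpc5 was at -1.01 at 10% members, where members of the 5 to 20% tier enter the inside group, and Sox9 at 1.29 (adjusted p = 0.082) at 30%. Between sexes, where 0 were called, DESeq2 gave 6 higher and 3 lower, the summed cell volume 11 higher, and leaving out a coverslip 0 to 6 higher and 0 to 6 lower, the 6 and 6 without coverslip 3; the cause was not tested.

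Values near 0 changed sign. Meg3 against Bcl11b-low GABA neurons was at 0.025 by volume, 0.0074 with DESeq2, 0.0029 with the stricter gate of 8 and 8, and 0.43 in member-dense squares, with -0.10 to 0.019 without a coverslip; Pvalb was at 0.24 in member-dense squares. Against the Gad-low class volume gave -0.0012 for Meg3 and -0.11 for Pvalb. Inside against outside, Meg3 was at 0.014 for genes of at least 0.1 counts per cell, 0.16 and 0.017 at 10% and 30% members, 0.22 in cells of 200 to 400 counts and -0.039 to 0.022 without a coverslip, and Pvalb was at 0.014 at 10%, 0.027 in cells of 200 to 400 counts and -0.077 to 0.025 without a coverslip. Between sexes Cx3cl1 was at -0.0055 by library totals and -0.0067 with DESeq2. Without a coverslip the sexes' log2 differences ran from -0.21 to 0.27 for Cx3cl1, -0.43 to 0.69 for Adra2c, -0.014 to 0.13 for Meg3, -0.0017 to 0.26 for Pvalb and -0.081 to 0.35 for Wnt7a.

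The member share was 2.54% after thinning to 120 counts and 3.38% with the stricter gate, and the share of members among neighbours was 20.5% and 26.8%. The cause was not tested. Genes under the highest blank, 90 of 134 in members, could not be called higher in them whatever their difference.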
